A study of Arabidopsis thaliana with 4 samples.

Results

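The 10 genes described here form the core of the Arabidopsis flowering pathway. They were taken by locus number from the 37869 loci counted in each library. They are CO, FT, TSF, SOC1, SVP, AGL24, TFL1, LFY, AP1 and FUL, and all 10 loci carried these names in the TAIR10.1 annotation, 2 of them as synonyms (SOC1 as AGL20 and FUL as AGL8). Messenger RNA was sequenced from whole seedlings of Arabidopsis thaliana, 14 days old, grown on soil under 16 h of light and 8 h of darkness. There were 2 libraries of the line Col-LUC and 2 of tho2-8, a mutant line named for THO2, which encodes a subunit of the THO complex of mRNA packaging and export. The genotype label reads Col-LUC for all 4 libraries, so the groups were taken from the titles. What the LUC part of the name carries and which promoter drives it, the nature of the tho2-8 allele, the hour of collection, and whether replicates came from separate plants are not stated in the labels. The p-values therefore rest only on how these libraries vary, and that variation may be technical.

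In long days the B-box protein CO accumulates in leaf phloem and switches on FT, whose protein moves to the shoot apex. There FT and its close relative TSF, partnered by the bZIP protein FD, raise the MADS-box genes SOC1, FUL and AP1. SVP and its relative AGL24 are MADS-box proteins with opposite known roles, SVP as a repressor of FT and SOC1 and AGL24 as a promoter of flowering. LFY and AP1 give a meristem floral identity, and TFL1, a relative of FT, keeps the shoot tip indeterminate.

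For AP1 and FT the 250 bases before the annotated start are shown, because LFY is known to bind the AP1 promoter and because FT was the member with reads in 1 genotype only. The capitals mark each match to CCANTG, the core letters of the LFY binding site, on either strand. Sequences are from the RefSeq TAIR10.1 genome, 5′ to 3′ on the strand of the gene. AP1 lies on the minus strand, with its window at chr1:25986350-25986599, and FT on the plus strand, with its window at chr1:24331123-24331372.
AP1: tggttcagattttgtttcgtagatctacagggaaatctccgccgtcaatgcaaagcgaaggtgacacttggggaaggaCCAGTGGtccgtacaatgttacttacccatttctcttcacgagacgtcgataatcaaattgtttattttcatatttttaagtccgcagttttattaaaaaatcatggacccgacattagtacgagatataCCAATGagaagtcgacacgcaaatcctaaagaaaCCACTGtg
FT: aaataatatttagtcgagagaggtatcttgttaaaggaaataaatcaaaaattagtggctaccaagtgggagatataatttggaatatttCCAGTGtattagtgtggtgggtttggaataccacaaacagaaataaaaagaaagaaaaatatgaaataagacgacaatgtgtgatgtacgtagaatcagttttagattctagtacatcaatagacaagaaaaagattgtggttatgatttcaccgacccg
The AP1 window held 4 matches, 2 of which overlap each other on opposite strands, between 172 and 166 bases before the start. The FT window held 1 match, from 160 to 155 bases before the start. Of the 10 genes, 5 had at least 1 match (FT, TSF, AGL24, AP1 and FUL), and 21.1% of 37897 annotated nuclear genes did. The CArG box, the MADS-box binding sequence (CC, then A or T at each base, then GG), had 0 matches in the 10 windows and was present in 2.25% of all windows. A match describes these letters and is not a measured site.

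Library totals ran from 17119534 to 17877934 counts, and levels are given as CPM, counts scaled to a common library size. The floor of 3 counts, below which a library cannot be told from 0, corresponds to 0.165 to 0.177 CPM. THO2 mRNA itself measured 82.1 and 84.5 CPM in Col-LUC against 109 and 100 CPM in tho2-8, with a log2 fold change of 0.33 ± 0.15 (SE, n = 2 per genotype), and edgeR's quasi-likelihood test gave it an adjusted p of 0.34. Of 20971 genes tested across the transcriptome 2 passed at an adjusted p under 0.05, a share of 0.00954%. With the unadjusted p held to 0.05 instead, 8.4% of tested genes were higher in tho2-8 and 7.18% lower. In 25.8% of tested genes the tho2-8 libraries lay above both of the Col-LUC ones, and in 22.8% below both.

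None of the 10 genes was called in tho2-8. The filter on low counts kept 8 of them and left FT and TSF untested, and 0 of the 8 passed edgeR's test over all genes or DESeq2, which called 2.65% of its 21109 tested genes. At an unadjusted p under 0.05 in edgeR 1 was higher, SVP, and 1 lower, AP1, which is near the background share of tested genes. With 1 library left out this number ran from 0 to 3. The tho2-8 libraries lay above both Col-LUC libraries for 2 of the 8, SVP and SOC1, and below both for 0. The median log2 fold change of the 8 was 0.22, beside 0.01 over all tested genes.

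**Figure D1:**
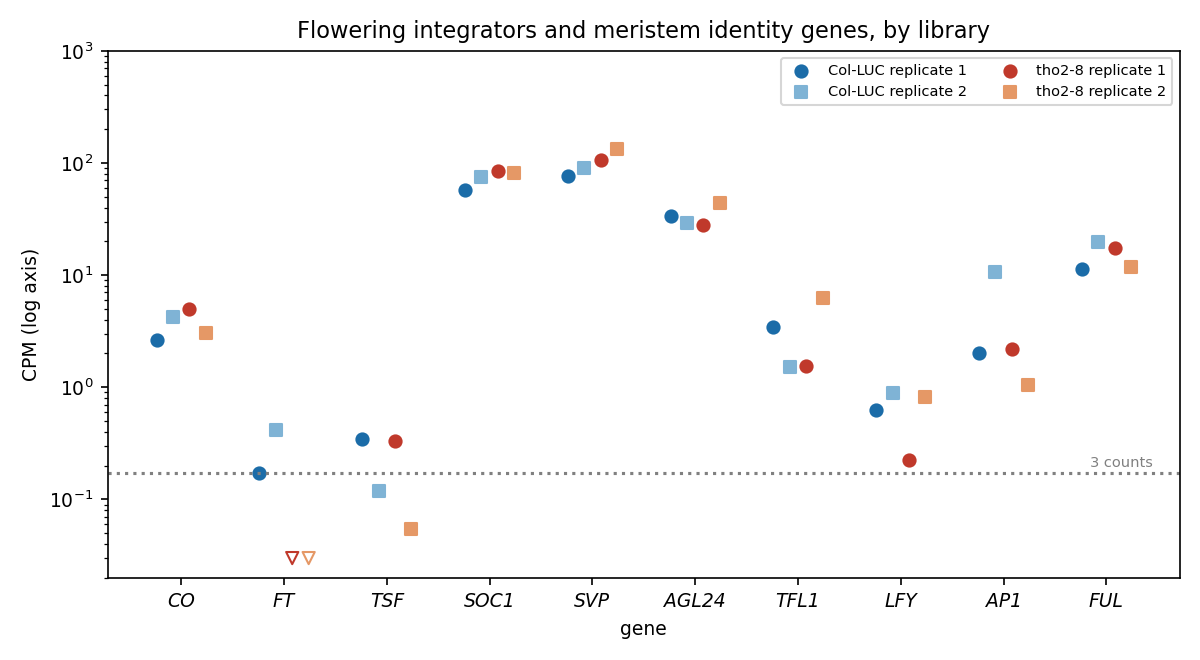
CPM of the 10 genes in each of the 4 libraries on a log axis; circles are replicate 1, squares replicate 2, blue Col-LUC and red or orange tho2-8. The dotted line is the mean CPM of 3 counts, and open triangles are libraries with 0 counts, drawn at an arbitrary low position. FT had 0 counts in both tho2-8 libraries, and AP1 in Col-LUC replicate 2, at 10.6 CPM, stood apart from the other libraries.

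Levels were compared between genes per kilobase of annotated exon, and the MADS-box genes SVP, SOC1, AGL24 and FUL were the highest in both genotypes. In Col-LUC, SVP averaged 46.5 CPM per kb and SOC1 42.4, and their ranges overlapped. AGL24 followed at 27 and FUL at 11.9 CPM per kb, each apart from its neighbours in the order. AP1 at 3.6 and TFL1 at 2.86 CPM per kb overlapped, and CO at 1.17, LFY at 0.55, FT at 0.3 and TSF at 0.284 CPM per kb were the lowest, with FT and TSF overlapping. In tho2-8 the first 4 places were held by the same genes, SVP at 66.8, SOC1 at 53.4, AGL24 at 31.1 and FUL at 11.2 CPM per kb, and no neighbours among these 4 overlapped. Lower in the tho2-8 order, TFL1 at 4.47 CPM per kb came before CO at 1.38 and AP1 at 0.924, and the ranges of CO and AP1 overlapped. The value for CO is divided by 2924 bp, its whole gene, because 1 annotated model keeps the intron as exon.

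CO (AT5G15840, chr5:5170162-5173085, minus strand), the B-box gene that switches on FT, measured 2.63 and 4.19 CPM in Col-LUC against 5.03 and 3.02 CPM in tho2-8. The genotypes overlapped, with tho2-8 replicate 1 highest and Col-LUC replicate 1 lowest. For CO the log2 fold change was 0.24 ± 0.43 (SE, n = 2 per genotype), and edgeR gave an adjusted p of 0.83. CO overlaps AT5G15843 and the non-coding RNA AT5G15845 on the opposite strand. The kit was stranded, but the strand setting of the counting is not given, so reads of these loci may not be separable. AT5G15843 had 0 counts in every library, and AT5G15845 had 38, 26, 23 and 34 counts in Col-LUC replicates 1 and 2 and tho2-8 replicates 1 and 2.

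FT (AT1G65480, chr1:24331373-24333999, plus strand), the mobile florigen, had 3 and 7 counts in the Col-LUC libraries and 0 in both tho2-8 libraries. The Col-LUC counts correspond to 0.172 CPM, with an exact 95% Poisson interval of 0.0354 to 0.502, and 0.413 CPM, with an interval of 0.166 to 0.851. The intervals cover counting error only. In each tho2-8 library the interval reached up to 0.206 and 0.203 CPM, above the point value of Col-LUC replicate 1. Over each genotype, FT had 10 counts in Col-LUC and 0 in tho2-8. With no filter on low counts edgeR gave FT an unadjusted p of 0.0404 and an adjusted p of 0.343, and DESeq2 an unadjusted p of 0.076 and no adjusted p. In these bulk seedlings fewer cells expressing a gene and less RNA per cell cannot be told apart.

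TSF (AT4G20370, chr4:11000771-11003010, minus strand), the twin of FT, had 6 and 2 counts in Col-LUC and 6 and 1 in tho2-8. Replicate 1 of each genotype held more counts than replicate 2, and the genotypes overlapped. At 0.344, 0.118, 0.335 and 0.0549 CPM, TSF was below the floor of 3 counts in 2 of the 4 libraries. A difference in TSF was not detectable at this depth.

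CO and FT are known to cycle over the day, and among clock-related genes LHY was high and GI below 1 CPM in all 4 libraries. The morning gene LHY measured 485 and 639 CPM in Col-LUC against 595 and 543 CPM in tho2-8. The evening gene GI, which acts upstream of CO, measured 0.229 and 0.118 CPM in Col-LUC against 0.559 and 0.824 CPM in tho2-8. Both tho2-8 values of GI lay above both Col-LUC values, an order seen in 25.8% of all tested genes, and GI was too low to be tested. In Col-LUC replicate 2 GI was below the floor of 0.177 CPM. The Poisson interval of Col-LUC replicate 1, from 0.0624 to 0.587 CPM, covered the value of tho2-8 replicate 1. Other clock genes were also high or low. TOC1 measured 80.9 and 91.9 CPM in Col-LUC against 87.6 and 93.9 CPM in tho2-8, while PRR9 and PRR7 were below 1 CPM in all 4 libraries. LHY, GI, TOC1, PRR9 and PRR7 were chosen after their values were seen, and they do not fix the hour of collection. Of 8 tested clock genes 1 was higher and 1 lower with an unadjusted p below 0.05, beside 8.4% and 7.18% of all tested genes. They were PRR5 with a log2 fold change of 0.78 ± 0.22 and LUX with -0.61 ± 0.22. The part of the clock genes in the levels of CO and FT was not tested. Phloem markers, the tissue of CO and FT, summed to 300 and 458 CPM in Col-LUC against 486 and 373 CPM in tho2-8, so the genotypes overlapped, and none of the 5 was at 0. At an unadjusted p below 0.05 in edgeR 1 of the 5 was higher, beside 8.4% of all tested genes. It was the phloem regulator APL, with a log2 fold change of 0.49 ± 0.19. The proton pump gene AHA3 had one of 0.44 ± 0.22. The rest of the list, named after its values were seen, lay near 0. SWEET11 had a log2 fold change of 0.13 ± 0.30, SUC2 of -0.03 ± 0.23 and SWEET12 of -0.11 ± 0.31.

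SVP (AT2G22540, chr2:9579647-9583901, plus strand), the MADS-box repressor, had the smallest p of the 8 tested genes in edgeR. It measured 76.6 and 89.9 CPM in Col-LUC against 107 and 132 CPM in tho2-8. Both tho2-8 libraries lay above both Col-LUC libraries. The log2 fold change was 0.52 ± 0.18 (SE, n = 2 per genotype), a fold of 1.44, with an unadjusted p of 0.0205 and an adjusted p of 0.244 by edgeR and of 0.261 by DESeq2. With each library left out in turn the log2 fold change ran from 0.38, without tho2-8 replicate 2, to 0.64, without Col-LUC replicate 2, and edgeR's adjusted p from 0.2 to 0.696. Over all 12 alternatives the adjusted p of SVP ran from 0.134 to 0.696.

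SOC1 (AT2G45660, chr2:18807505-18811125, minus strand), the integrator that SVP is known to repress and CO and FT to activate, measured 56.9 and 74.9 CPM in Col-LUC against 84.9 and 81.1 CPM in tho2-8. The groups did not overlap, though Col-LUC replicate 2 lay closer to the tho2-8 libraries than to Col-LUC replicate 1. Its log2 fold change was 0.33 ± 0.18 (SE, n = 2 per genotype), and edgeR gave an adjusted p of 0.409. Without Col-LUC replicate 1 it was 0.15.

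AGL24 (AT4G24540, chr4:12670897-12674106, minus strand), the relative of SVP that promotes flowering, measured 33.3 and 29.2 CPM in Col-LUC against 28.2 and 43.7 CPM in tho2-8. The lowest and the highest library were both tho2-8. In edgeR the log2 fold change was 0.20 ± 0.23 and the adjusted p 0.711. Per kilobase and within a library, where the scaling of libraries cancels, SVP was 1.48 and 1.99 times AGL24 in Col-LUC and 2.46 and 1.94 times in tho2-8, so the genotypes overlapped. SVP was 1.17 and 1.04 times SOC1 in Col-LUC and 1.1 and 1.41 times in tho2-8, which also overlapped.

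FUL (AT5G60910, chr5:24502434-24506269, minus strand), a MADS-box gene of meristem and fruit identity, measured 11.3 and 19.8 CPM in Col-LUC against 17.5 and 11.8 CPM in tho2-8. Each genotype had 1 high and 1 low library. For FUL the log2 fold change was -0.08 ± 0.32, with an adjusted p of 0.928 by edgeR.

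LFY (AT5G61850, chr5:24844248-24846989, plus strand), the transcription factor of floral fate, had 11 and 15 counts in Col-LUC and 4 and 15 in tho2-8. These are 0.63 and 0.885 CPM in Col-LUC and 0.223 and 0.824 CPM in tho2-8, with tho2-8 replicate 1 alone below the others. Its log2 fold change was -0.52 ± 0.74, with an adjusted p of 0.782 by edgeR.

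AP1 (AT1G69120, chr1:25982294-25986349, minus strand), the meristem identity gene that LFY activates, measured 2 and 10.6 CPM in Col-LUC against 2.18 and 1.04 CPM in tho2-8. Col-LUC replicate 2 was high, and Col-LUC replicate 1 lay between the tho2-8 libraries. Its log2 fold change was -1.96 ± 0.78 (SE, n = 2 per genotype), with an unadjusted p of 0.0412 and an adjusted p of 0.3 by edgeR and of 0.106 by DESeq2. Without Col-LUC replicate 2 the log2 fold change was -0.31, with an unadjusted p of 0.67 in edgeR's fit across all genes, so that library decided the value. Without Col-LUC replicate 1 it was -2.71, with an adjusted p of 0.383 by edgeR, and over the 12 alternatives the adjusted p of AP1 ran from 0.0912 to 0.867.

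**Figure D2:**
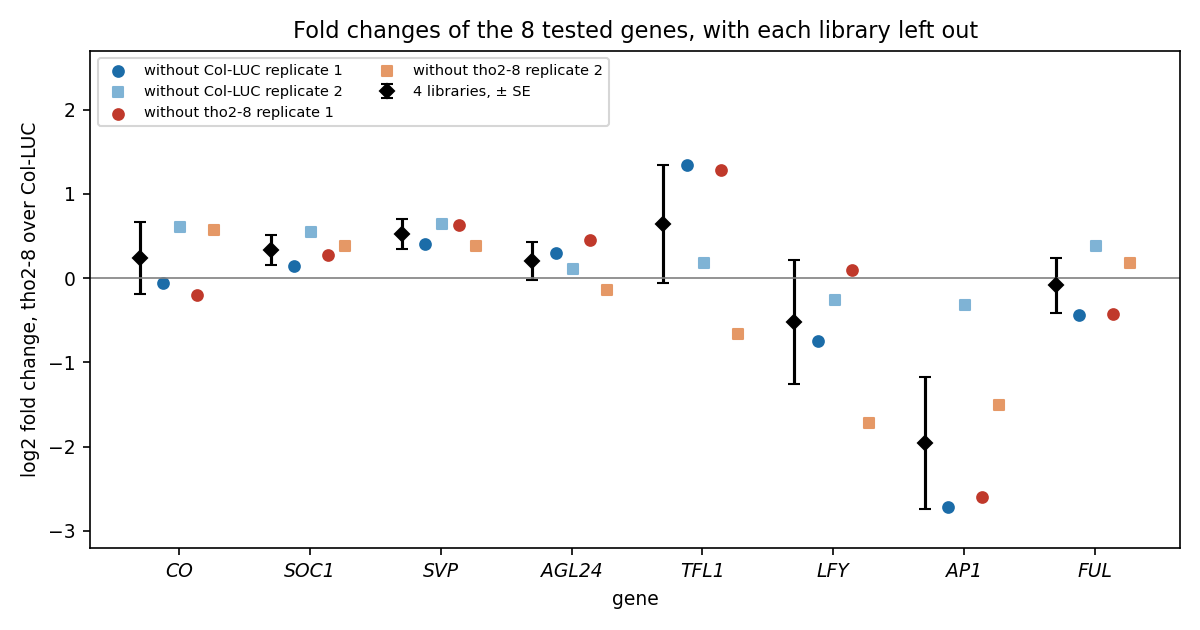
Log2 fold change of tho2-8 over Col-LUC for the 8 tested genes; black diamonds are the fit to 4 libraries with its SE, and coloured points the fits with 1 library left out. SVP, SOC1 and AP1 kept their sign in every fit shown, and AP1 moved to -0.31 without Col-LUC replicate 2.

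Of the 9 floral organ markers, 5 had their highest value in Col-LUC replicate 2 as AP1 did, 3 of them tested. Of the rest, 3 were highest in tho2-8 replicate 1 and 1, SHP1, in tho2-8 replicate 2. Of the 4 SEP genes, MADS-box partners of AP1 in the flower, 3 were highest in Col-LUC replicate 2 and 1, SEP1, in tho2-8 replicate 1. SHP1 and SEP1 were chosen after their values were seen. The share of all tested genes highest in each library was not computed, so no background stands beside these counts. Of the network genes, SEP3 and SEP2 had the patterns nearest to AP1, with root mean square differences of 0.78 and 0.97 in log2 CPM over the 4 libraries. SEP3 measured 2.52 and 13.7 CPM in Col-LUC against 4.53 and 3.79 CPM in tho2-8, and SEP2 stood at 0.516, 3.42, 1.17 and 1.1 CPM in the same order. The floral organ gene AG, which specifies stamens and carpels, measured 0.401 and 3.07 CPM in Col-LUC against 1.01 and 0.439 CPM in tho2-8. AP3, of petals and stamens, chosen after its values were seen, measured 0.916 and 4.31 CPM in Col-LUC against 3.13 and 1.43 CPM in tho2-8, and its partner PI stood at 4.07, 5.25, 3.69 and 2.69 CPM in the same order. The 9 floral organ markers summed to 9.28 and 18.2 CPM in Col-LUC against 11.1 and 12.4 CPM in tho2-8. STK, SUP and SPL, here SPOROCYTELESS, were at 0 in Col-LUC replicate 1, SUP was at 0 in tho2-8 replicate 2, and none was at 0 in the other libraries. Their part in the AP1 result was not tested.

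TFL1 (AT5G03840, chr5:1024500-1025872, minus strand), the antagonist of LFY and AP1 in the shoot tip, measured 3.44 and 1.53 CPM in Col-LUC against 1.56 and 6.21 CPM in tho2-8. Replicate 2 of tho2-8 was highest, Col-LUC replicate 2 and tho2-8 replicate 1 were close together and lowest, and the groups overlapped. The log2 fold change was 0.64 ± 0.70, with an adjusted p of 0.699 by edgeR, and it was -0.66 without tho2-8 replicate 2 and 1.34 without Col-LUC replicate 1. Of the 10 shoot meristem markers, 5 had their highest value in tho2-8 replicate 2 as TFL1 did. Another 2 were highest in Col-LUC replicate 1 and 2 in Col-LUC replicate 2. Here too the share of all tested genes highest in each library was not computed. STM, which maintains the shoot meristem, measured 23.6 and 24.6 CPM in Col-LUC against 16.8 and 41.3 CPM in tho2-8, and KNAT1, of the same homeobox class, stood at 55, 49.1, 39.7 and 108 CPM in that order. These 2 genes were chosen after their values were seen. KNAT2 measured 3.38 and 4.54 CPM in Col-LUC against 3.24 and 10.3 CPM in tho2-8. The organ boundary gene CUC1 had a log2 fold change of -1.10 ± 0.53. The 10 shoot meristem markers summed to 151 and 157 CPM in Col-LUC against 121 and 237 CPM in tho2-8. CLV3 was at 0 in all 4 libraries and WUS in replicate 1 of each genotype. Of the 8 tested meristem markers 0 had an unadjusted p under 0.05, and their part in the TFL1 values was not tested.

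**Figure D3:**
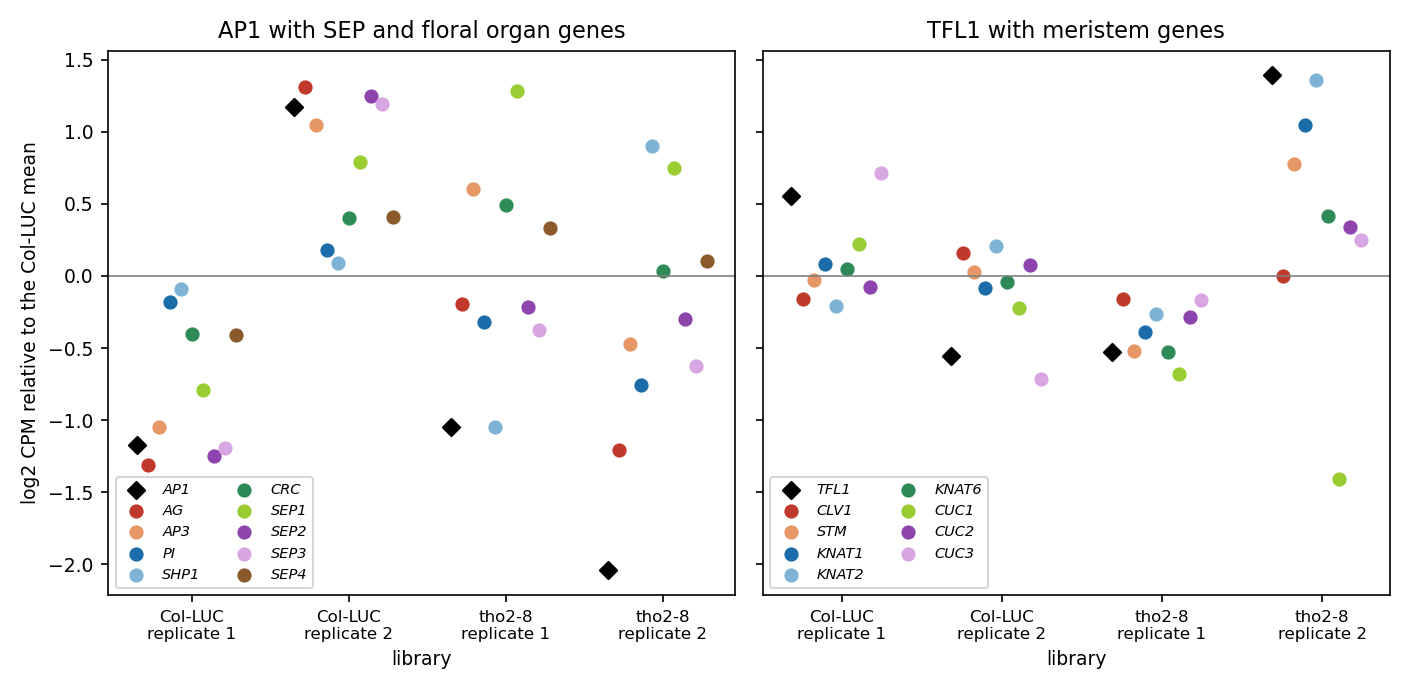
Log2 CPM relative to the Col-LUC mean in each library for AP1 with the 4 SEP genes and the 5 tested floral organ markers (left) and for TFL1 with the 8 tested meristem markers (right). AP1, 3 of the SEP genes and 3 of the floral organ markers were highest in Col-LUC replicate 2. TFL1 and 5 of the meristem markers were highest in tho2-8 replicate 2, and the rest in other libraries. These counts have no share over all tested genes beside them.

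Within a library and per kilobase, FUL was 7.53 and 2.5 times AP1 in Col-LUC and 10.7 and 15.1 times in tho2-8, and the groups did not overlap. TFL1 was 3.43 and 0.291 times AP1 in Col-LUC and 1.44 and 11.9 times in tho2-8, and the groups overlapped. TFL1 was 8.64 and 2.75 times LFY in Col-LUC and 11.1 and 11.9 times in tho2-8, which did not overlap. The rest of the 7 ratios computed overlapped between the genotypes. With 2 libraries against 2, a two-sided exact permutation p cannot fall below 0.333.

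The other flowering genes were read beside the 10 from lists of 72 genes, of which 63 were tested. None was called by edgeR over all genes, and DESeq2 called 3, all higher in tho2-8, beside 2.65% of all genes it tested. At an unadjusted p below 0.05 in edgeR 10 were higher and 0 lower. Over all tested genes 8.4% were higher and 7.18% lower at that threshold. In both directions together the count for the 63 was near the 15.6% of all tested genes. The median log2 fold change of the 63 was 0.10, beside 0.01 over all tested genes. The list with the most genes at an unadjusted p under 0.05 was that of repressors of FT and SOC1, with 5 of 14 higher, 0 lower and a median of 0.26.

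The 3 DESeq2 calls were all such repressors. MAF5, a MADS-box relative of FLC, measured 0.63 and 0.649 CPM in Col-LUC against 4.75 and 5.44 CPM in tho2-8. Its log2 fold change was 2.98 ± 0.42 (SE, n = 2 per genotype), and the adjusted p was 0.0889 in edgeR and 0.000229 in DESeq2. MAF5 lies beside related copies, so its share of common reads is uncertain. TEM2, an RAV-type protein that represses FT, measured 52.7 and 71.2 CPM in Col-LUC against 111 and 134 CPM in tho2-8. For TEM2 the log2 fold change was 0.98 ± 0.20, with an adjusted p of 0.131 by edgeR and 0.00355 by DESeq2. Its relative TEM1 measured 50.5 and 71.3 CPM in Col-LUC against 114 and 111 CPM in tho2-8, with a log2 fold change of 0.88 ± 0.20 and an adjusted p of 0.145 by edgeR and 0.0124 by DESeq2. Over the 12 alternatives the adjusted p ran from 0.000229 to 0.383 for MAF5, from 0.00355 to 0.389 for TEM2 and from 0.0124 to 0.389 for TEM1, highest without Col-LUC replicate 1. For all 3 genes both tho2-8 libraries lay above both Col-LUC libraries, as in 25.8% of all tested genes. The 3 were picked by a call on the same libraries, so this adds no support.

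FLC itself, chosen after its values were seen, measured 0.229 and 0.59 CPM in Col-LUC against 0.726 and 1.04 CPM in tho2-8, with an adjusted p of 0.477 by edgeR. Among regulators of FLC in the autonomous pathway 2 of 8 were higher at an unadjusted p under 0.05, beside 8.4% of all tested genes. FPA, an RNA-binding protein of 3′ end choice, had a log2 fold change of 0.57 ± 0.15 and LD, a homeodomain protein, of 0.34 ± 0.14. REF6, a histone demethylase, stood at 0.30 ± 0.15. FPA also had the pattern nearest to SVP, with a root mean square difference of 0.07 in log2 CPM over the 4 libraries.

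Of 15 tested genes of light and CO control 1 was higher at an unadjusted p under 0.05 and 0 lower. Over all tested genes the shares were 8.4% and 7.18%. The median log2 fold change of the 15 was 0.18. SPA4, which acts with COP1 to degrade CO, had a log2 fold change of 0.46 ± 0.18. CDF1 and CDF3, DOF-type factors of the family that represses CO, had log2 fold changes of 0.54 ± 0.29 and 0.43 ± 0.28. The blue light receptor CRY1 had the pattern nearest to SOC1, with a root mean square difference of 0.07.

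Of 11 tested partners and relatives of FT 2 were higher and 0 lower with an unadjusted p below 0.05. Over all tested genes the shares were 8.4% and 7.18%. The 2 higher genes were subunits of the NF-Y complex, which acts with CO at FT. On the log2 scale NF-YB2 stood at 0.60 ± 0.18 and NF-YC4 at 0.45 ± 0.17. The other NF-Y subunits listed, named after their values were seen, did not share this. NF-YB3 stood at 0.22 ± 0.24, NF-YC9 at -0.02 ± 0.15 and NF-YC3 at -0.345 ± 0.205. FD, the partner of FT at the shoot apex, chosen after its values were seen, measured 7.85 and 8.38 CPM in Col-LUC against 9.16 and 10.8 CPM in tho2-8, with an adjusted p of 0.595 by edgeR. MFT, a relative of FT known from seed germination, had a log2 fold change of -0.96 ± 0.48.

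The remaining lists held no gene at an unadjusted p under 0.05. Of the 3 tested SOC1 relatives, AGL42 had a log2 fold change of -0.31 ± 0.26, AGL14 of -0.42 ± 0.43 and AGL19 of -0.11 ± 0.38. Of the 3 tested SPL genes of the age pathway, SPL5 stood at 1.27 ± 0.64, SPL9 at 0.29 ± 0.19 and SPL4 at 0.08 ± 0.34 on the same scale. SPL4 had the pattern nearest to both CO and FUL, with a root mean square difference of 0.12 in log2 CPM for each. Of the 9 tested floral identity partners and targets, BOP2 and BOP1, which act with LFY, had log2 fold changes of -0.41 ± 0.20 and -1.11 ± 0.76 and SEP1 of 0.85 ± 0.50. Patterns nearest to the other genes were those of TOE2 for AGL24 at 0.07, FDP for LFY at 0.19 and ATC for TFL1 at 0.58. Second in likeness were SPA3 for CO at 0.17, SPA4 for SOC1 at 0.09, CDF3 for SVP at 0.09 and BLH9 for AGL24 at 0.16. TOE2 was second for TFL1 at 0.60, BOP2 for LFY at 0.50 and SNZ for FUL at 0.18, each out of 63 genes. Among the genes named here SPA3, SPA4, MFT, NF-YB2, NF-YC3, NF-YC4, FLC and FPA also overlap a gene on the opposite strand. So do SPL4, SPL5, SPL9, SEP1, BOP2, SHP1, STK and LUX, and the same limit as for CO holds for all of these.

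**Figure D4:**
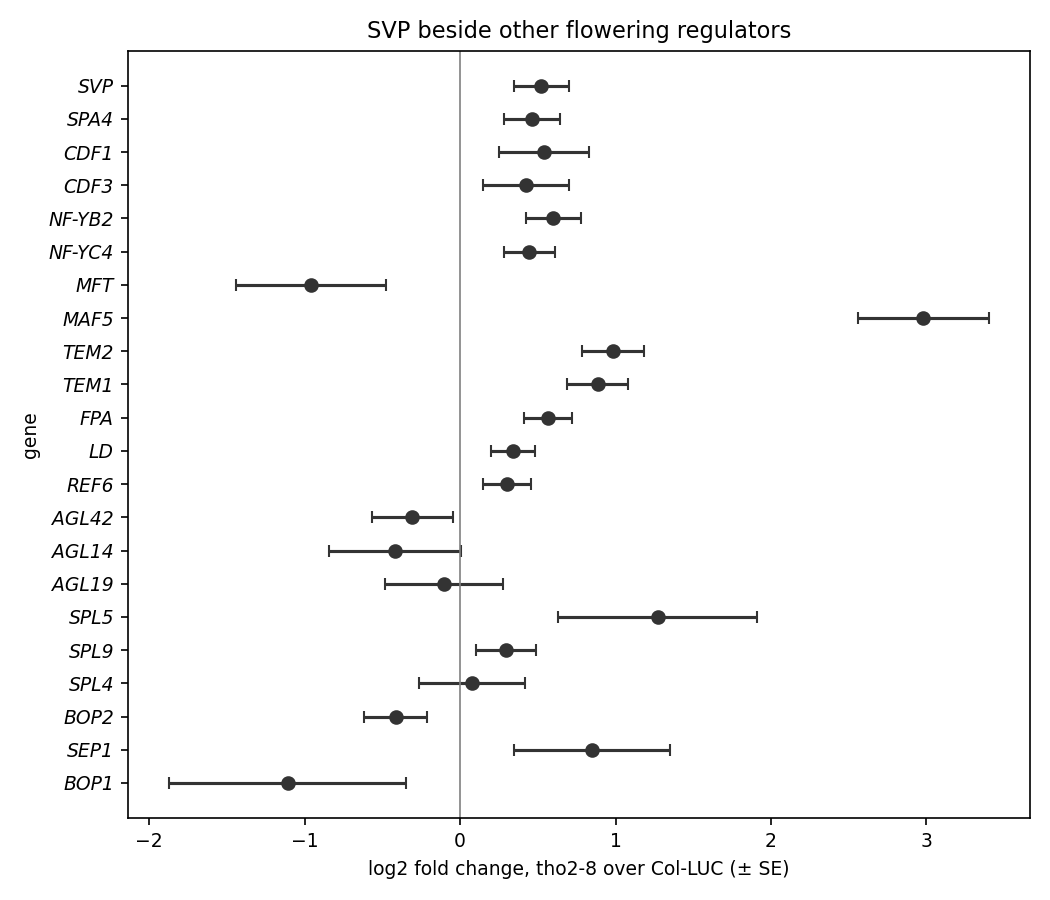
Log2 fold change of tho2-8 over Col-LUC with its SE for SVP and for the 3 tested genes with the smallest p in each list of other flowering genes. MAF5, at 2.98, lay furthest from 0. The SE bar of SVP, at 0.52, overlapped those of most genes shown, among them SPA4, FPA and the NF-Y subunits.

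Of the 10 root markers edgeR called 0 and DESeq2 called 1 lower, CASP1, with an adjusted p of 0.0411 by DESeq2. Over all 21109 genes it tested, DESeq2 called 290 lower. All 10 root markers had log2 fold changes below 0, as did 10178 of all 20971 tested genes. Their median was -0.71, beside 0.01 over all tested genes. In edgeR 3 of the 10 were lower at an unadjusted p under 0.05, beside 7.18% of all tested genes. CASP1 and CASP2 of the root endodermis stood at -1.33 ± 0.42 and -1.36 ± 0.46, and CASP1 overlaps a gene on the opposite strand. The summed level of the list was 252 and 176 CPM in Col-LUC and 146 and 192 CPM in tho2-8, with none at 0. PHO1, chosen after its values were seen, made up most of each sum. It measured 166 and 127 CPM in Col-LUC against 98.3 and 164 CPM in tho2-8. With each marker weighted alike, the mean log2 CPM relative to Col-LUC was 0.37 and -0.37 in Col-LUC against -0.42 and -1 in tho2-8. The part of the root markers in the values of shoot genes such as SVP was not tested.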

How the data were processed

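Sequencing libraries came from whole seedlings of 2 genotypes with 2 libraries each. The authors deposited 1 table per library, holding estimated counts for each locus without normalisation. The submitters' processing notes name the TAIR10 build, featureCounts 1.6.3, HISAT2 2.1.0, Trimmomatic and DESeq2 1.24.0; how strand and shared reads were treated is not stated there. Between 2.06% and 2.15% of loci held fractional values, so counts were rounded before the count tests. The 296 organelle loci held 0 counts. Symbols, coordinates and exon lengths are from TAIR10.1, a later release than the build in the notes, and the tables hold no coordinates.

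The main test was edgeR 4.0.16 in R 4.3.3, with DESeq2 1.42.0 and limma 3.58.1 as alternatives. After filterByExpr at its defaults, TMM factors were computed and genotype was tested alone by glmQLFit and glmQLFTest, with Benjamini-Hochberg adjustment over all tested genes at 0.05. Standard errors were derived from the F statistic. The tests were tested on simulated data. CPM used TMM-scaled totals, and patterns were compared as log2 CPM with a prior count of 2. Of 127 list entries 1 was dropped because the annotation did not pair symbol and locus. The members and lists were chosen with earlier results of these data known. The text names all 10 genes, up to 3 tested genes with the smallest p of each list of flowering genes, up to 2 of each marker list, the 2 flowering genes nearest in pattern to a tested member, and genes stated as chosen after their values were seen. Alternatives were other tools, scalings and filters, a replicate block and leaving out each library.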

Additional observations from a re-analysis of the deposited data

How the results depend on the processing

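Of the 10 genes, those tested were called 0 times under each of the 12 alternatives tried, with 7 tested at a minimum of 1 CPM in 2 libraries, 10 without a filter and 8 otherwise. FT and TSF were tested by edgeR only without the filter. Of 95 fold changes of single genes 88 kept their direction and their side of the threshold. The 7 that changed sign all came from leaving out a library. Across these fits the log2 fold change ran from -0.20 to 0.61 for CO, from -0.14 to 0.46 for AGL24, from -0.66 to 1.34 for TFL1, from -1.72 to 0.10 for LFY and from -0.43 to 0.38 for FUL. The cause was not tested. The number of genes called over the transcriptome was 2 in edgeR, 560 in DESeq2, 1 in limma-voom, and 59 without a filter on low counts. It ran from 0 to 710 with 1 library left out, 0 without either Col-LUC library, 115 without tho2-8 replicate 2 and 710 without tho2-8 replicate 1. Of the other flowering genes edgeR called 0, DESeq2 called 3 and edgeR without the filter called 1, and the number ran from 0 to 2 with 1 library left out, with 2 (MAF5 and TEM2) without tho2-8 replicate 1. With the replicate number as a block edgeR called 2 genes and 0 of the flowering genes. The labels do not say what the numbers share, and same-numbered libraries deviated from their genotype means with a correlation of -0.124, so the crossed pairing was added after seeing the data, and with that block edgeR called 537 genes, 3 of the other flowering genes and 0 of the 8 members tested. With 1 library in a genotype, that library is assumed to vary like the other genotype. Depth limits FT, TSF and LFY, which had at most 15 counts in any library.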
